A study of Mus musculus with 6 samples.

Results

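The SOX family of transcription factors was examined in N2A cells, a mouse neuroblastoma line used as a model of neuronal progenitors, after knockdown of the class III POU factor Pou3f3. The 10 SOX genes described were Sox1, Sox2, Sox3, Sox4, Sox5, Sox6, Sox9, Sox10, Sox11 and Sox12, chosen by name as potential partners of POU factors, out of 19938 genes with a row of their own. Each gene was read from the array row that carried its symbol alone. Each of the 10 had a value on every array. Knockdown cells received a vector expressing a short hairpin RNA (shRNA) against Pou3f3, and control cells a non-targeting vector. Both were transient transfections of 1.5 ug of construct, with RNA extracted 2.5 days later and hybridised to Affymetrix Mouse Gene 1.0 ST arrays. There were 3 knockdown and 3 control arrays, described as biological replicates of this single cell line, so a p-value measures the spread between cultures of N2A cells. In a pool of transfected and untransfected cells, fewer cells of a kind and less RNA per cell cannot be told apart.

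SOX proteins bind the minor groove of DNA through an HMG box and bend it, and they generally act together with a second factor bound at a neighbouring site. POU proteins are the best known of these partners: SOX2 works with POU5F1 in pluripotent cells and with the class III protein POU3F2 in neural progenitors, SOX10 with POU3F1 in glia, and SOX11 with POU3F3 in transfected cells. The SOXB1 genes (Sox1, Sox2, Sox3) keep neural progenitors undifferentiated. The SOXC genes (Sox4, Sox11, Sox12) act in newly formed neurons and in sympathetic precursors, from which neuroblastoma derives. The SOXE genes (Sox9, Sox10) specify neural crest, glia and cartilage, and the SOXD genes (Sox5, Sox6) modify the action of the other groups.

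The promoters of the SOXC genes are shown because the values of this group differed most between knockdown and control cells, with no test between groups. A Sox1 stretch was added because it held the same exact match to the POU octamer as Sox12. Neither Sox11 nor Sox4 held a match. The sequences are from RefSeq on GRCm38.p6, read 5′ to 3′ on the strand of the gene. The SOXC sequences are the 250 bases before the annotated start, at chr12:27342719-27342968 for Sox11, chr2:152398047-152398296 for Sox12 and chr13:28953700-28953949 for Sox4, all on the minus strand. The Sox1 sequence is 30 bases at chr8:12395526-12395555 on the plus strand. Capitals mark the POU octamer ATGCAAAT.
Sox11: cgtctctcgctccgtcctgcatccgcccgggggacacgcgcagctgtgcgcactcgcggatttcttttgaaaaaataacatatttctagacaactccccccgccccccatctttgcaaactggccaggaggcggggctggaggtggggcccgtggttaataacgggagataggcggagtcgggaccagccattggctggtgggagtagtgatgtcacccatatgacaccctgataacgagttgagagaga
Sox12: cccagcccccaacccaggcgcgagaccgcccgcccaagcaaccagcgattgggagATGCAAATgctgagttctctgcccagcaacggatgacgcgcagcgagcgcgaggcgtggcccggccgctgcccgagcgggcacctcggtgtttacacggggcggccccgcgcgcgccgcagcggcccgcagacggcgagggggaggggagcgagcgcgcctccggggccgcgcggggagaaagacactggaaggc
Sox4: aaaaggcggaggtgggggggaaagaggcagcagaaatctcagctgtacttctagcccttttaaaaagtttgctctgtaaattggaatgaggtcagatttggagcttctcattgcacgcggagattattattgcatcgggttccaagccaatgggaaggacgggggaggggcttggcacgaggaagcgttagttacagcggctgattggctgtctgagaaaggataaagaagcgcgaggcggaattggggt
Sox1: gccagcgcgccATGCAAATcaccgccgccg

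The octamer was searched on both strands in windows of 300 bases, 250 before and 50 after each start. A window was given for 7 of the 10 genes, Sox1, Sox2, Sox4, Sox5, Sox6, Sox11 and Sox12, with 12 windows in all. The octamer lay 195 bases before the start of Sox12 and 18 bases after that of Sox1, and 1.74% of all 32851 windows held it. The SOX sites ACAATG and ACAAAG were searched in the same way. Sox6 alone had 6 of the 12 windows. ACAATG was in 3 of the 12, those of Sox5 and 2 of Sox6, and in 12.6% of all windows. ACAAAG was in 6 of the 12, those of Sox2 and 5 of Sox6, and in 18.7% of all windows. Neither SOX site can be contained in the octamer. A match is a description of these letters and not a site of binding.

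The values are log2 levels after robust multi-array averaging (RMA), and a difference is knockdown minus control on that scale. A gene was called changed when limma gave a Benjamini-Hochberg adjusted p under 0.1 over all 21789 rows with 1 symbol and a fold of at least 1.3, a difference of 0.38. Arrays of the same group correlated at r of 0.997 to 0.999 over these rows, and the median difference of all rows was -0.03, with 42.5% of rows above 0. The targeted gene Pou3f3 measured 8.20, 8.09 and 8.35 on the knockdown arrays, against 8.37, 8.30 and 8.47 on the control arrays. Its difference of -0.16 ± 0.08 (SE) was not called (adjusted p = 0.303), and the groups overlapped. The knockdown array was the lower of each pair with the same replicate number. With replicate numbers entered as a block the adjusted p was 0.0880, with the difference under 1.3-fold. By qRT-PCR, a separate measure at a later time after transfection, the paper reported a partial reduction of Pou3f3 transcript after transient knockdown. Pou3f2, Pou3f4 and Pou3f1 differed by -0.24 (adjusted p = 0.120), -0.24 (adjusted p = 0.163) and -0.06 (adjusted p = 0.590), and none was called. For each of them all knockdown arrays were below all control arrays, as for 15.1% of all rows. Their blocked adjusted p was 0.0264, 0.0440 and 0.479, with every difference under the fold. All 10 measured markers of sympathetic neuroblasts had mean levels above 7.29, the 95th percentile of 1210 olfactory and vomeronasal receptor rows.

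No SOX gene was called in either direction, while 433 of all rows (1.99%) were called, 284 higher (1.3%) and 149 lower (0.684%). At an unadjusted p under 0.05, 4 of the 10 SOX genes and 19.9% of all rows passed. The differences ran from -0.21 for Sox10 to 0.41 for Sox11 with a median of -0.003. The 5 genes above 0 were the 3 SOXC genes, Sox6 and Sox9. The groups did not overlap for 4 genes that were higher in knockdown cells, Sox4, Sox9, Sox11 and Sox12, beside 10.9% of all rows, and for 1 that was lower, Sox10, beside 15.1%. An exact two-sided permutation test over the arrays gave p = 0.1 for these 5 genes, the smallest that 3 arrays against 3 allow. Groups that do not overlap always give this p, so it adds nothing to that description. For 8 genes the 95% interval of the difference lay within a 1.3-fold change on both sides, the exceptions being Sox11 and Sox12.

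**Figure D1:**
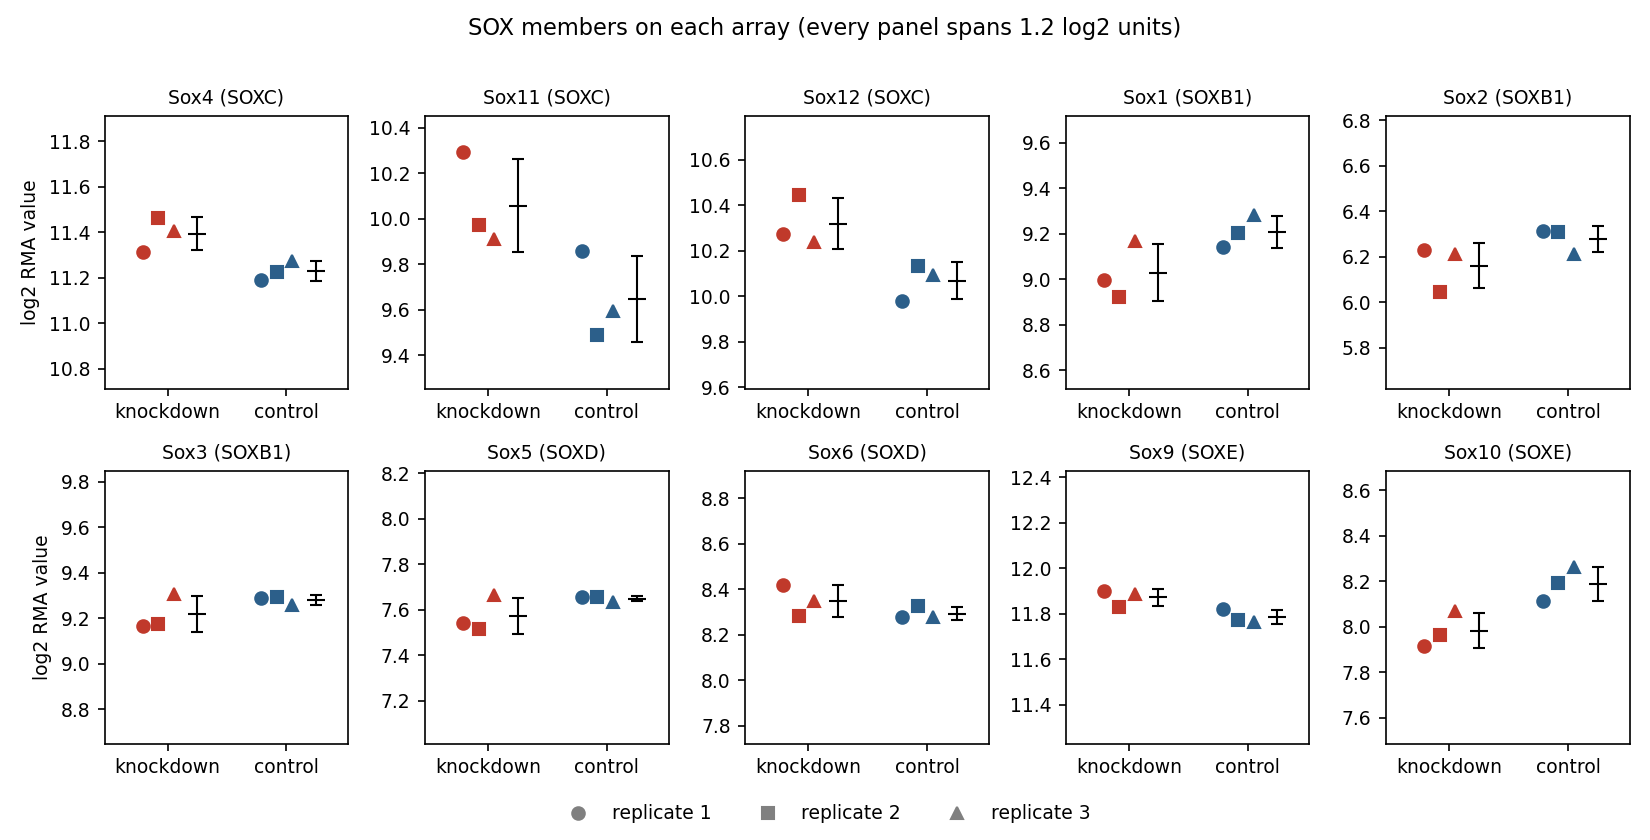
Log2 RMA value (y axis) of each SOX gene on the 3 knockdown arrays (red, left) and the 3 control arrays (blue, right), with the mean and SD beside them; symbols give the replicate number and each panel spans 1.2 log2 units. All knockdown arrays lie above all control arrays for Sox4, Sox9, Sox11 and Sox12, and below them for Sox10.

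Sox11, which promotes neuronal differentiation and is expressed in immature neurons, had the largest difference of the family. It measured 10.29, 9.97 and 9.91 on the knockdown arrays, against 9.86, 9.49 and 9.59 on the control arrays. The lowest knockdown array was 9.91 and the highest control array 9.86, and replicate 1 was the highest array of both groups. The means were 10.06 ± 0.21 in knockdown cells and 9.65 ± 0.19 in control cells (SD, n = 3 each). The difference was 0.41 ± 0.12 (SE), a level 32.9% higher in knockdown cells with a 95% interval of 9.92% to 60.7%. This passed the fold but not the adjusted p of 0.1 (adjusted p = 0.127). Replicate numbers were then entered in the fit as a block, which takes out the spread shared by arrays of the same number. The block assumes that equal numbers mark pairs, which was clear from the arrays for replicate 1 only. With the block the same difference of Sox11 had an SE of 0.06 and was called higher (adjusted p = 0.00446). It was the 1 SOX gene called with the block, beside 544 of all rows in either direction (2.5%) and 379 higher (1.74%). Within the pairs Sox11 was higher in the knockdown by 0.43, 0.48 and 0.32.

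The blocked call of Sox11 rested in part on pair 2 and on the rows fitted. Without pair 2 the difference was 0.376, just under the cut of 0.379. The call was lost on the fold alone, as the blocked adjusted p from limma was 0.00239. With the study's variance filter, read as a variance above the median of all rows, the blocked adjusted p was 0.129. Sox11 was called in 7 of 10 alternatives with the block and in 3 of 15 without it, and lay above 0 in all 25.

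**Figure D2:**
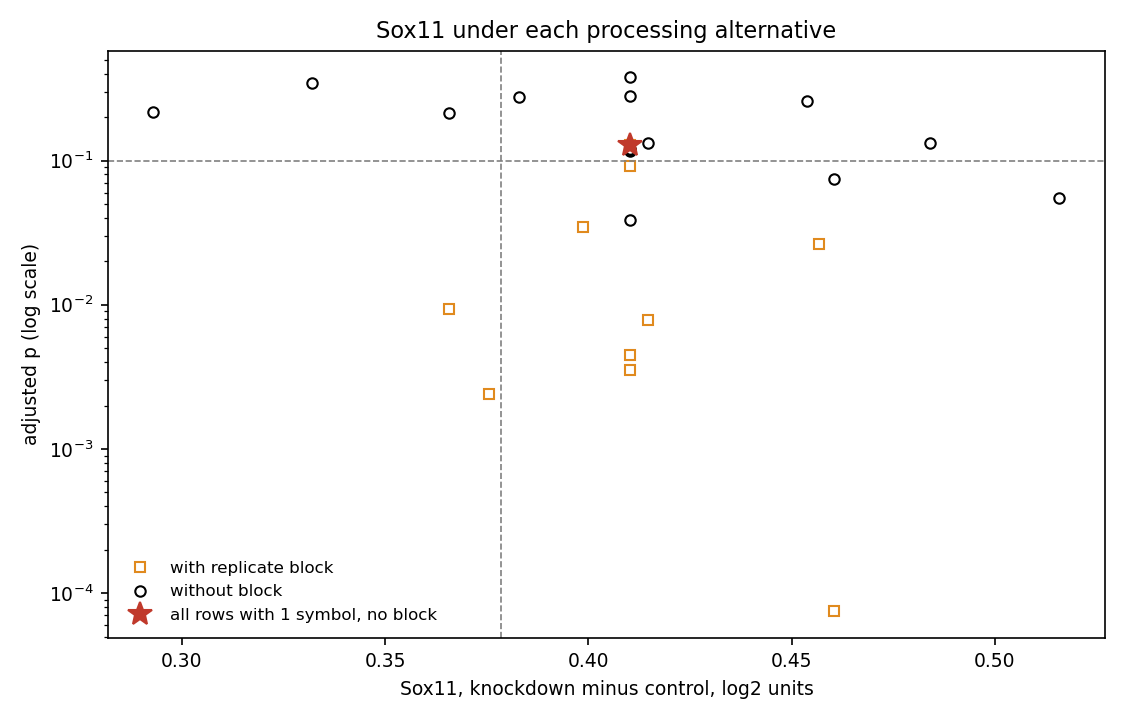
Difference of Sox11, knockdown minus control in log2 units (x axis), against its adjusted p on a log axis (y axis) under each processing alternative; dashed lines are the 1.3-fold difference of 0.38 and the adjusted p of 0.1, so a point at the lower right was called. Of the 25 alternatives, 7 of 10 with the replicate block (squares) and 3 of 15 without it (circles) lie there, and the star is the fit described in the text, at 0.41 and 0.127.

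Sox12, a SOXC gene with broad expression in the embryo, measured 10.27, 10.45 and 10.24 on the knockdown arrays, against 9.98, 10.13 and 10.09 on the control arrays. Every knockdown array was above every control array. The means were 10.32 ± 0.11 in knockdown cells and 10.07 ± 0.08 in control cells (SD, n = 3 each). The difference was 0.25 ± 0.08 (SE; 95% interval 0.07 to 0.43; adjusted p = 0.141). The blocked fit gave an adjusted p of 0.0296, but the difference was under 1.3-fold and Sox12 was not called.

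Sox4, a regulator of neuronal maturation and of cell survival, measured 11.32, 11.46 and 11.41 on the knockdown arrays, against 11.19, 11.23 and 11.27 on the control arrays. The groups did not overlap, and the gap between them was narrow. The difference was 0.16 ± 0.07 (SE; 95% interval 0.01 to 0.32; adjusted p = 0.223), with a blocked adjusted p of 0.0927, and Sox4 was under the fold. Within the pairs the 3 SOXC genes were above 0 each time, by 0.13, 0.24 and 0.13 for Sox4 and by 0.30, 0.31 and 0.14 for Sox12.

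The SOXB1 genes all had lower means in knockdown cells, and none was called. Sox1, a marker of neuroepithelial progenitors, measured 8.998, 8.92 and 9.17 on the knockdown arrays, against 9.14, 9.20 and 9.28 on the control arrays. The groups overlapped through knockdown replicate 3, although each knockdown array was the lower of its pair. The difference was -0.18 ± 0.08 (SE; 95% interval -0.36 to 0.0004; adjusted p = 0.253), with a blocked adjusted p of 0.0790 below the fold.

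Sox2, which maintains both pluripotent cells and neural progenitors, measured 6.23, 6.05 and 6.21 on the knockdown arrays, against 6.32, 6.31 and 6.21 on the control arrays. The difference of -0.12 ± 0.07 (SE; adjusted p = 0.396) came with a gap within pair 3 of only -0.002. Sox2 was the 1 gene of the 10 whose mean over the arrays lay below 7.29, so its level was within the range of the receptor rows, whose genes this line is not known to use. Rows differ in how well their probes hybridise, so this is no measure of whether Sox2 was expressed.

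Sox3, an X-linked gene of progenitors, measured 9.17, 9.18 and 9.31 on the knockdown arrays, against 9.29, 9.29 and 9.26 on the control arrays. Replicates 1 and 2 were lower in the knockdown and replicate 3 was higher. The difference was -0.06 ± 0.07 (SE; 95% interval -0.21 to 0.09; adjusted p = 0.613).

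The SOXE genes had differences of opposite sign, and neither was called. Sox10, which specifies neural crest and drives Schwann cell and oligodendrocyte genes, measured 7.92, 7.96 and 8.07 on the knockdown arrays, against 8.11, 8.19 and 8.26 on the control arrays. All knockdown arrays were below all control arrays. The difference was -0.21 ± 0.07 (SE; 95% interval -0.37 to -0.04; adjusted p = 0.172), 13.3% lower, and the pairs gave -0.20, -0.23 and -0.19. The blocked adjusted p was 0.0440, with the difference again under 1.3-fold.

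Sox9, a regulator of gliogenesis and cartilage formation, measured 11.90, 11.83 and 11.88 on the knockdown arrays, against 11.82, 11.77 and 11.76 on the control arrays. The groups did not overlap, but the difference was only 0.09 ± 0.06 (SE; 95% interval -0.05 to 0.23; adjusted p = 0.450).

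The SOXD genes differed little. Sox5 measured 7.54, 7.52 and 7.66 on the knockdown arrays, against 7.66, 7.66 and 7.64 on the control arrays, a difference of -0.08 ± 0.07 (SE; adjusted p = 0.540). Sox6 measured 8.42, 8.28 and 8.35 on the knockdown arrays, against 8.28, 8.33 and 8.28 on the control arrays, a difference of 0.06 ± 0.07 (SE; adjusted p = 0.645). Both sets of arrays overlapped and the pairs were of mixed sign, so no direction could be given for these partners of SOX9 in cartilage and of other SOX groups in neural development.

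**Figure D3:**
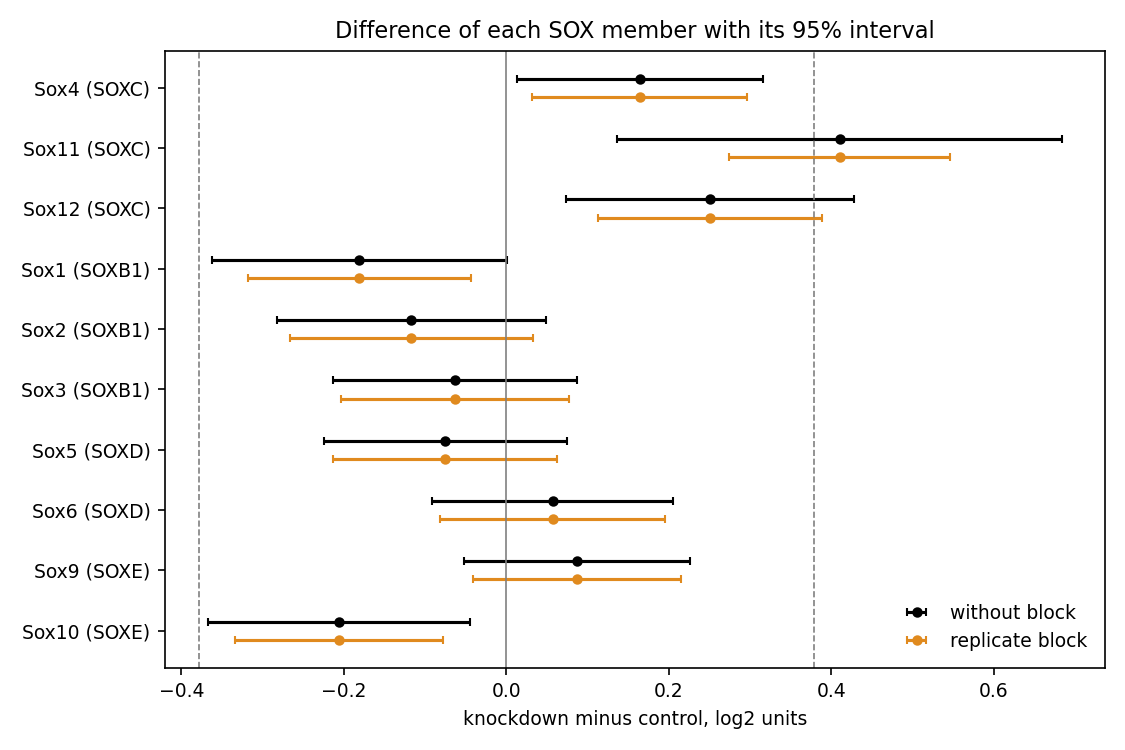
Difference of each SOX gene, knockdown minus control in log2 units (x axis), with its 95% interval from limma without a block (black) and with replicate numbers as blocks (orange); dashed lines mark a 1.3-fold change in either direction. The interval of Sox11 with the block runs from 0.27 to 0.55, and Sox12 is the other gene whose interval passes the 1.3-fold line.

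In all 3 pairs the knockdown array was the higher for Sox4, Sox9, Sox11 and Sox12, and the lower for Sox1, Sox2 and Sox10. The pairs of the other 3 genes were mixed. Over all rows, 52.9% had the same sign in the 3 pairs. The blocked adjusted p was under 0.1 for 5 of the 10 genes at any fold, beside 23.0% of all rows.

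**Figure D4:**
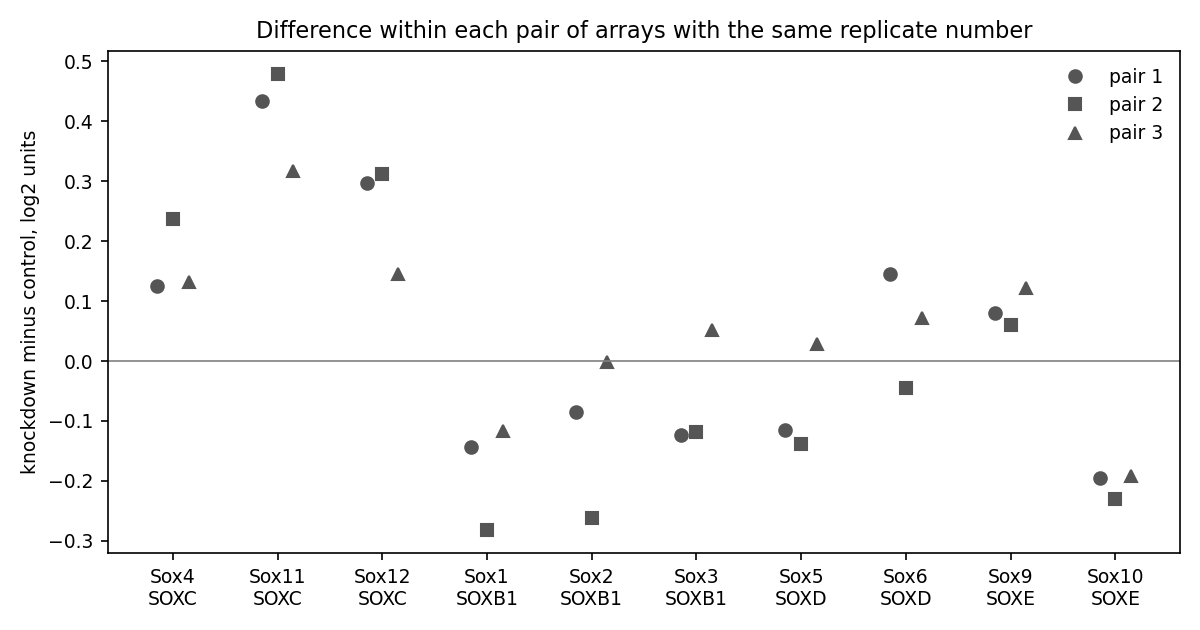
Difference of each SOX gene within the pairs of arrays that share a replicate number, knockdown minus control in log2 units (y axis), with 1 symbol per pair. The 3 SOXC genes lie above 0 in every pair, from 0.13 to 0.48, and Sox1, Sox2 and Sox10 lie below 0 in every pair.

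The differences of all rows varied with level. Divided by mean level into 10 bins of like size, from low to high, the rows had median differences from -0.09 in bin 4 to 0.07 in bin 7. Bin 7 held Sox11 and Sox12, which stood at 0.41 and 0.25 beside its median of 0.07, and Sox10 was in bin 5, with a median of -0.08. The 5th and 95th percentiles of the differences were -0.24 and 0.35 in bin 7, and -0.24 and 0.26 in bin 5. Sox12 and Sox10 lay within the range of their bins, and Sox11 lay above that of bin 7. The part of this pattern in the SOX values was not tested.

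**Figure D5:**
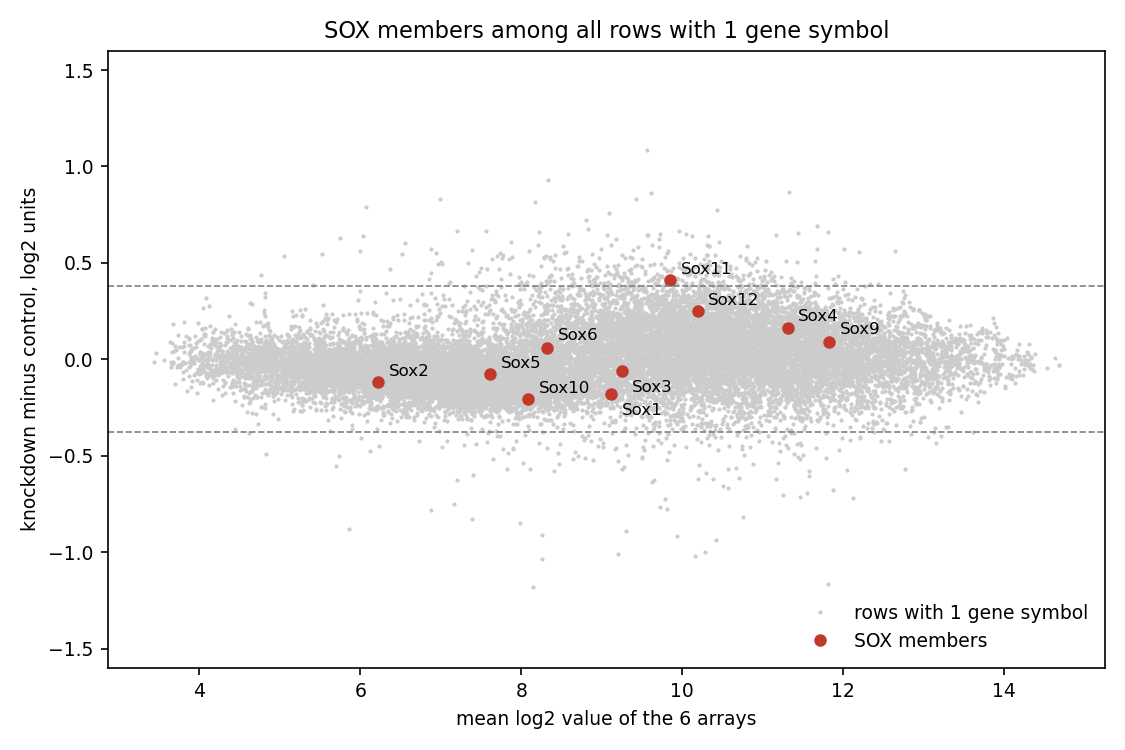
Mean log2 value of the 6 arrays (x axis) against the difference, knockdown minus control in log2 units (y axis), for the 21789 rows with 1 symbol (grey) and the 10 SOX genes (red); dashed lines mark a 1.3-fold change. Sox11, at 0.41, is the 1 SOX gene beyond a line.

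None of the 10 other SOX genes measured was called. Their median control level of 7.99 lay in bin 5, whose rows had a median difference of -0.08. Beside this, 9 of the 10 were below 0, with a median of -0.12, while 42.5% of all rows were above 0. The largest difference was in Sox8, a SOXE gene, which measured 10.11, 10.22 and 10.28 on the knockdown arrays, against 10.00, 9.91 and 10.15 on the control arrays (difference 0.18, adjusted p = 0.257). The groups overlapped, and Sox8 was the higher in the knockdown in each of the 3 pairs. Of the other HMG box factors, 10 of 11 were measured and none was called. The repressor Hbp1 differed most, at 0.24 (adjusted p = 0.186).

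Genes that SOX factors are known to partner or to control were looked up by name. Of the 17 measured SOXB1 partners and targets none was called, and the largest difference was that of the progenitor filament Nes, at 0.29 (adjusted p = 0.337). Of the 17 SOXC targets none was called, with a median of -0.004. The neural adhesion molecule Ncam1 measured 12.98, 12.93 and 12.92 on the knockdown arrays, against 13.25, 13.42 and 13.29 on the control arrays. The groups stood clear of each other and the adjusted p was 0.0377, but the difference of -0.38 was just under 1.3-fold. All 10 cartilage targets of SOX5, SOX6 and SOX9 were below 0 with a median of -0.16, and none was called. Their median control level of 7.99 lay in bin 5, whose rows had a median difference of -0.08. The furthest was Col11a2, a cartilage collagen, at -0.24 (adjusted p = 0.138).

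Of the 16 measured SOXE targets 1 was called, lower. Mitf, the regulator of pigment cell fate that SOX10 activates, measured 9.29, 9.33 and 9.25 on the knockdown arrays, against 9.70, 9.84 and 9.68 on the control arrays. The groups were far apart relative to their spread, and Mitf fell by 0.45 in knockdown cells (adjusted p = 0.0192). A second Mitf row differed by 0.09, and the mean of both rows, at -0.18, was not called. With the block Nfib, a factor of glial differentiation, was also called lower, at -0.38 (blocked adjusted p = 0.00507). Without the block Nfib was not called (adjusted p = 0.131).

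Several SOX genes also mark other cell types, so the markers of those types were read beside them. Of 36 measured markers that are not SOX genes, 7 were above 0 and 29 below, with a median of -0.10. Among all rows 42.5% were above 0, and the rows of bin 4 had a median of -0.09. The mean level of the 36 markers was 7.61 to 7.72 on the knockdown arrays and 7.69 to 7.72 on the control arrays, within bin 4. Of the 36, 15 had a control mean at or below 7.29. The 1 called was the neural crest and progenitor gene Pax3, which was higher by 0.42 (adjusted p = 0.0700) and lost the call in 10 of 25 alternatives. Of the 10 measured neuroblast markers, 4 were above 0 and 6 below, and 1 was called. Dbh, the enzyme that makes noradrenaline, fell by 1.17 in knockdown cells (adjusted p = 0.00471). With the block Th, which makes the precursor of dopamine, was also called lower, at -0.38 (blocked adjusted p = 0.0420). Its pairs were uneven, at -0.03, -0.70 and -0.41, and without the block Th was not called (adjusted p = 0.133). Th was not followed through the other alternatives. The part of these markers in the SOX values was not tested.

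Over the 6 arrays, the rows most like Sox11 by Pearson r were Efhc2 (0.997), Pus7 (0.997) and Qrsl1 (0.995) among 21788 rows. These arrays share normalisation and replicate structure, and 788 rows had an r over 0.9 with Sox11, so the names serve as a description only.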

How the data were processed

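The deposited values are log2 expression levels that the authors made by RMA, with background correction, quantile normalisation and summary over probes. The submitters' processing notes list RMA and limma with no version. Of 35556 rows, 21789 carried 1 symbol in the platform's gene table, 1621 several and 12146 were not listed (the last kinds stayed unnamed). For the array design, a genome build is not given in the sources read. For each symbol the row with the highest mean over the 6 arrays was used.

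The rows with 1 symbol were fitted in R 4.3.3 with limma 3.58.1 (lmFit, eBayes, two-sided) without the variance filter of the study. The paper's wording leaves the scale of that cut-off unclear. It was read here as a variance above the median of all rows, which only 4 of the 10 SOX genes passed. Calls needed an adjusted p under 0.1 with at least 1.3-fold. The fit was tested on simulated data. Deviations from the group means correlated at 0.64, 0.31 and 0.29 in pairs with the same replicate number in the labels, and at -0.48 to 0.25 between different numbers. The numbers were taken to pair the arrays because every same-number value was over 0.1. Some values between different numbers also passed 0.1, and pairs 2 and 3 stood little above the highest of them. Only replicate 1 was clearly matched, so for the other numbers the pairing is an assumption. The genes, lists, test and alternatives were chosen with earlier results of these data known. Named genes are the SOX genes, the class III POU genes, called genes of each list or its largest difference, and the 3 rows most like Sox11. Nfib and Th were named after their values were seen, because the blocked fit called them. Some genes of the lists are not reported here. Without detection values, the number of arrays limits the precision, and a shift shared by most transcripts cannot be seen after quantile normalisation.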

Additional observations from a re-analysis of the deposited data

How the results depend on the processing

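No SOX gene changed sign under any alternative. Over 207 alternative fits of the 9 genes other than Sox11 none was called, and the replicate block changed the call of no SOX gene but Sox11. The number of SOX genes called, 0 without the block, was 1 (Sox11 each time) with the replicate block, with the block after centring on the median of the rows with 1 symbol or of all rows, with the block over all rows or over 1 row per symbol, without the block among rows with 1 symbol with a variance above the median (adjusted p = 0.0384), and without the block after centring each array on the median of all its rows (adjusted p = 0.0748). Centring on the median of the rows with 1 symbol, run first, gave no call (adjusted p = 0.133). Centring on all rows was added after that result had been seen, and so were all combinations with the block. Leaving out 1 array gave 0 to 1, the call coming without control replicate 1 (0.52, adjusted p = 0.0550), and leaving out 1 pair in the blocked fit gave 0 to 1. After cyclic loess with the block Sox11 was at 0.37, under the fold.

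The count of all rows called, 433, was 28 over all rows, 748 after centring on all rows with the block, and 969 at any fold. With the variance filter as read here it was 12, and with that filter and the block 0 (lowest adjusted p = 0.108). The paper reported more changed genes for this knockdown than any of these counts, so none of them is the study's own result. The gap was widest for the counts with the variance filter as read here, and it was small for the count at any fold. Without the filter the count ran from 147 to 611 without 1 array, the lowest without knockdown replicate 2, and from 429 to 852 without 1 pair. The counts without control replicate 2 and control replicate 3 were 161 and 219. Of the calls 65.6% were higher, against 54.6% after cyclic loess and 82.4% after centring on all rows, which moved the median difference to 0.02 from -0.03. Most calls were lower in some alternatives, where 16.7% were higher with the variance filter, 35.7% over all rows, 45.6% without knockdown replicate 2 and 48.4% without control replicate 2. The call of Mitf was lost in 4 of 25 alternatives and that of Dbh in 1. The causes were not tested.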

Other observations

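The long non-coding transcripts named after SOX genes were measured beside them. Sox1ot, which overlaps Sox1, measured 8.23, 8.03 and 8.38 on the knockdown arrays, against 8.34, 8.47 and 8.30 on the control arrays, a difference of -0.16 (adjusted p = 0.372). Sox6os differed by -0.08 (adjusted p = 0.603). In both the groups overlapped and the pairs were of mixed sign.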
